A study of Oryza sativa with 2 samples.

Results

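The HD-ZIP III genes that miR166 cuts were followed here through the RNA fragments their cleavage leaves behind. Members were all listed pairs in which the small RNA is a miR166 or miR165 and the symbol of the transcript is HOX9, HOX10, HOX33 or HOX29. This gave 4 genes of the 9660 listed, with 13 transcript versions and 91 of 25653 pairs, and 89 of these 91 pairs had reads. No small RNA named miR165 was in the table. The genes are ZS10g0374700 (HOX9, 5 versions), ZS03g0017300 (HOX10, 3), ZS12g0493500 (HOX33, 3) and ZS01g0095200 (HOX29, 2).

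Fragments were read by degradome sequencing, which captures uncapped 5' ends, in mesocotyls of the indica rice cultivar P25. The mesocotyl is the stem-like part of a grass seedling that lifts the shoot to the soil surface. One library came from seedlings kept for 5 days in darkness (the dark library) and the other from seedlings first kept likewise and then given 1 h of light (the light library). All seedlings were raised on Murashige and Skoog medium. The library totals recovered from the deposited values were 15422946 and 34051452 reads, so the light library was 2.21 times as deep. Each condition has 1 library, so the conditions cannot be tested against each other and no difference has a replicate check. Every interval is a 95% interval of counting error in these libraries alone, and PCR reads that carry no molecular identifiers cannot be counted as independent molecules. The table lists cut sites only, so the tissue label could not be checked against marker genes.

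HD-ZIP III proteins are plant transcription factors that join a homeodomain, a leucine zipper and a lipid-binding START domain. In Arabidopsis they specify the upper side of leaves, meristems and the pattern of xylem and phloem. Their transcripts carry a conserved miR166 site in the part that encodes the START domain, and miR166 guides an Argonaute protein to cut there, opposite bases 10 and 11 of the small RNA. In Arabidopsis and maize this keeps the transcripts out of the lower side of the leaf. In the deposited table HOX9 and HOX10 each carry 2 gene ontology terms that name xylem, and HOX29 carries 1. HOX33 carries none that names xylem. All members carry terms that name the adaxial side, 1 each for HOX9 and HOX10 and 2 each for HOX33 and HOX29. All also carry terms that name a meristem, 1 each for HOX9 and HOX10, 2 for HOX33 and 4 for HOX29.

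The members were paired with 8 of the 22 miR166 forms in the table. Their sequences are shown because the forms differ in penalty between the genes and 1 of them is listed with a second position. The last lines hold osa-miR166e-3p and osa-miR166g-3p_L+2R-2, which resemble the 3p arm but were listed with no member. They are written 5' to 3' as the deposited table gives them, with T for U, and capitals mark the seed, bases 2 to 8.
osa-miR166a-3p: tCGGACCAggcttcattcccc
osa-miR166a-3p_1ss21CA: tCGGACCAggcttcattccca
osa-miR166g-3p: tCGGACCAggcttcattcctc
osa-miR166k-3p: tCGGACCAggcttcaatccct
osa-miR166m_R-1: tCGGACCAggcttcattccc
gma-miR166a-3p_R+1_1ss17TC: tCGGACCAggcttcatccccca
rco-miR166a_R+2: tCGGACCAggcttcattcccctt
osa-miR166a-3p_L+2R-1: cTTCGGACcaggcttcattccc
osa-miR166e-3p: tCGAACCAggcttcattcccc
osa-miR166g-3p_L+2R-2: tCTCGGACcaggcttcattcc

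Of the 8 forms paired with members 7 share the seed CGGACCA and differ only towards the 3' end. With positions counted from 1 at the 5' end of osa-miR166a-3p and its base first, the form named 1ss21CA has C21A, osa-miR166g-3p has C20T, osa-miR166k-3p has T16A and C21T, and the gma form has T17C. The remaining form, L+2R-1, starts 2 bases earlier, so that its seed reads TTCGGAC. The members were listed only with forms like the 3p arm. The 12 other miR166 forms, which do not resemble this arm, had no pair with a member. Of the 3p forms without a member, osa-miR166e-3p has G4A inside the seed.

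The mispairing penalty, the authors' alignment score for a pair, was the same for every version of a gene and nearly the same across the genes. It stood at 2 with osa-miR166m_R-1, at 2.5 with osa-miR166k-3p and at 3 with osa-miR166a-3p and osa-miR166g-3p in all 4 genes. HOX33 departed from the others at the far end of the small RNA. With the form carrying C21A its penalty was 2, whereas it was 3 for HOX9, HOX10 and HOX29. The longest form, rco-miR166a_R+2, was listed with HOX33 alone, at 4, and the gma form was listed at 3.5 with the other genes and not with HOX33. HOX29 had the same penalty as HOX9 and HOX10 with each of the 7 forms listed for it.

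**Figure D1:**
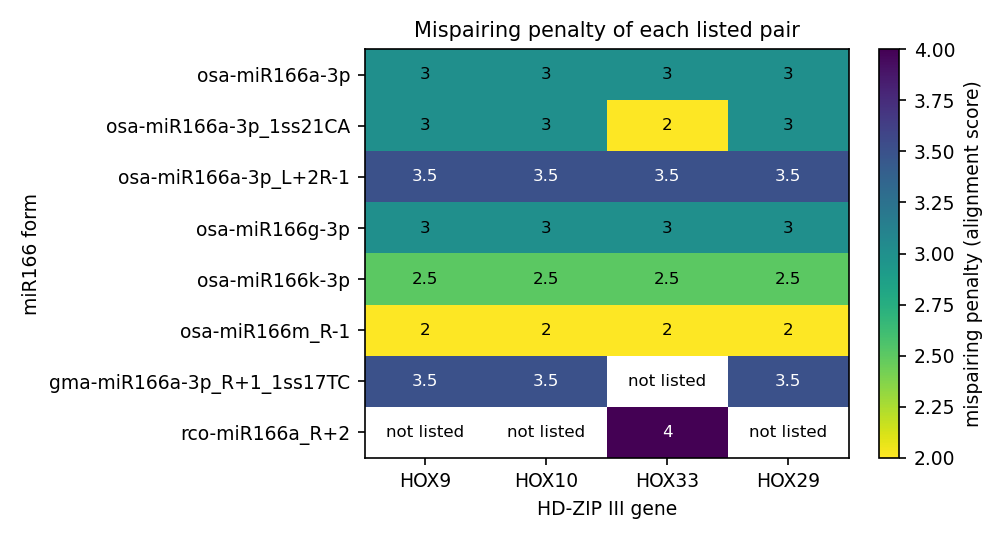
Mispairing penalty (alignment score, colour and number) of the 8 miR166 forms (rows) with the 4 HD-ZIP III genes (columns). Only HOX33 differs, at 2 where the others stand at 3 and in the forms that are listed for it.

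HOX9, a gene annotated with xylem development, was listed with a cut at position 1123 of 4 of its versions and at 1335 of the fifth. Each version had 161 raw reads starting there in darkness and 376 after light. HOX10, with the same annotation, was listed with a cut at position 1200 of 2 versions and 1238 of the third, with 160 and 375 raw reads. Nearly all of these reads also match HOX9, as set out below, so a cut of HOX9 and a cut of HOX10 are not shown separately. HOX33, annotated with adaxial and abaxial patterning, was cut at position 1032, 1979 or 1923 of its versions, with 29 and 62 raw reads. HOX29, at position 784 of both versions, had 1 raw read in either library. The light library held more raw reads than the dark library for HOX9, HOX10 and HOX33, and it was also the deeper one by 2.21 times.

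In HOX9, HOX10 and HOX33 this position was in category 0 in both libraries, which by common usage marks the highest position of a transcript. Category 0 was reached by 3 of the 4 members in both libraries, against 4.98% of the 823 genes with reads (5.95% in darkness and 6.68% after light). HOX9 and HOX10 rest on nearly the same reads and do not count as separate observations. All 5 NF-YA genes cut by miR169 reached category 0 too, in both libraries. Of the 5 ARF genes cut by miR160, 5 did so in darkness and 4 after light. The members are known miR166 targets, so the contrast with the 823 genes is a description. HOX29 was in category 4 in both libraries, where the members' positions with 1 read fall. All 89 pairs with reads had the cut opposite base 10 of their form, which a listing that requires this base would also give.

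A second, much weaker position lay 2 bases downstream of the main one in HOX9, HOX10 and HOX33. Only the form that starts 2 bases earlier, osa-miR166a-3p_L+2R-1, was paired with it, again opposite its base 10, which is base 8 of osa-miR166a-3p. The second position was in category 4 in darkness and category 2 after light. The authors' deposited p-value of the pair was 0.918 in darkness and 0.985 after light in each gene, so it gives no support for a cut. HOX9 and HOX10 had 1 raw read there in darkness and 7 after light, and HOX33 had 1 and 4. Together the second position took 2 of 193 distinct reads in darkness (1.04%, exact interval 0.126 to 3.69) and 11 of 449 after light (2.45%, 1.23 to 4.34). These intervals overlap, and a sum over the 3 genes was chosen after the values were seen. The light over dark ratio of the second position was 3.17 (0.407 to 143) for HOX9 with HOX10 and 1.81 (0.179 to 89.2) for HOX33, so no difference was detectable at this depth. In HOX29 the same form was listed without reads on both versions, which allows up to 195 TPB in darkness and 88.1 after light at a floor of 3 reads. TPB is the authors' scale, normalized reads divided by the library total and multiplied by 1000000000.

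The reads of HOX9 and HOX10 were almost entirely the same reads. In the authors' normalized reads each read is divided over the places it matches, as the deposited values show. At the main position they were 20.275 per HOX9 version and 20.208 per HOX10 version in darkness, and 47.075 and 46.875 after light. If a read matches either the 8 versions of both genes or only the versions of 1 gene, whole numbers follow from these values. In the dark library 159 reads were shared by both genes, 2 belonged to HOX9 alone and 1 to HOX10 alone. In the light library 375 were shared, 1 belonged to HOX9 alone and none to HOX10 alone. The shared number came out the same from the values of either gene, in both libraries.

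Distinct reads at the main position of both genes were therefore 162 in darkness and 376 after light, of which 98.1% and 99.7% were shared. Adding the raw reads of the 2 genes gives 321 and 751, nearly every read counted again. Adding them over all listed pairs of HOX9 and HOX10, second position included, gives 7718 and 18086. The normalized reads summed over the 8 versions give back 162 and 376. HOX33 showed no such sharing. Its 9.67 and 20.7 normalized reads per version, over 3 versions, add up to its 29 and 62 raw reads.

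The level of HOX9 above HOX10 on the TPB scale follows the number of versions. HOX9 stood at 6614 TPB in darkness and 7041 after light over all versions and both positions, and HOX10 at 3955 and 4207. HOX9 has 5 of the 8 versions and so receives 62.5% of every shared read. Per version HOX9 and HOX10 stood at 1315 and 1310 TPB at the main position in darkness, and at 1382 and 1377 after light. Which of the genes the shared fragments came from cannot be told apart, and the reads of 1 gene alone (2 against 1 in darkness, 1 against 0 after light) lie at or under the floor of 3 reads.

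**Figure D2:**
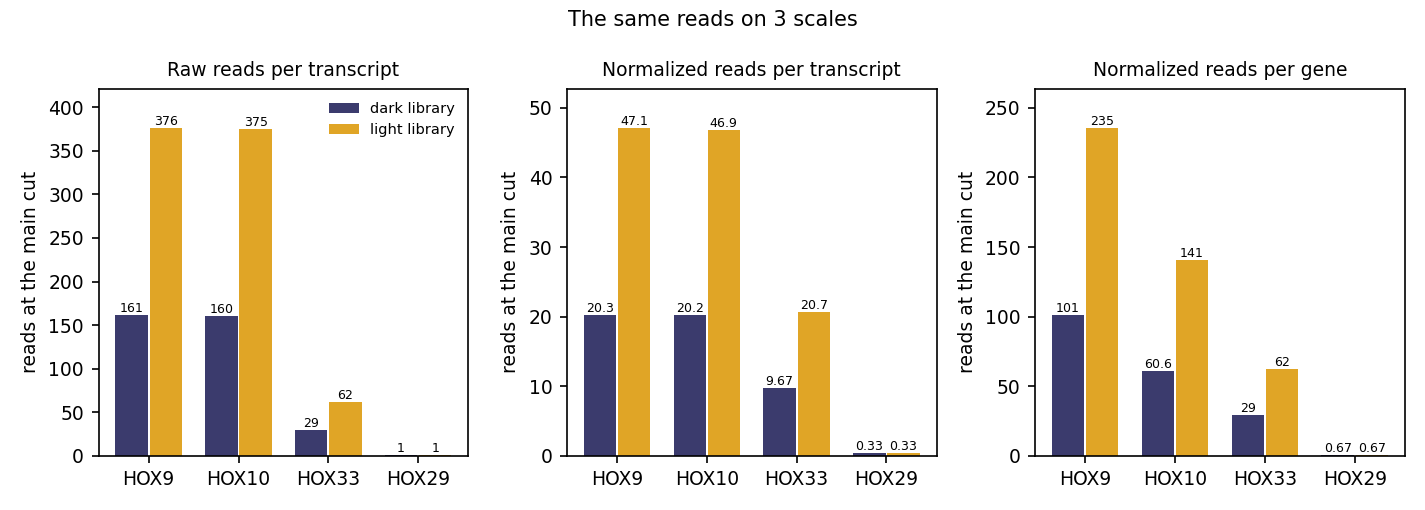
Reads at the main miR166 cut of each gene in the dark (blue) and light (yellow) library, not scaled for depth, as raw reads per version (left), normalized reads per version (middle) and normalized reads summed over versions (right). HOX9 and HOX10 are level per version, at 161 and 160 raw reads in the dark library, and part only in the right panel.

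Sharing to this extent was not particular to HOX9 and HOX10. Over all 823 genes with reads, 95 had under 0.70 normalized reads per raw read. Of the 29 genes with at least 100 raw reads, 4 had under 0.70 normalized reads per raw read, namely HOX10 at 0.376, HOX9 at 0.627, At3g47300 at 0.536 and the unnamed ZS03g0087400 at 0.5. The last pair was named after its values were seen. All 5 NF-YA genes cut by miR169 stood at 1, and the ARF genes cut by miR160 with at least 10 reads stood at 0.999 or more.

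The order of the members was HOX9 with HOX10, then HOX33, then HOX29, in both libraries. Counted as 1 unit, HOX9 and HOX10 stood at 10569 TPB in darkness and 11248 after light, places 7 and 9 among the genes of each library, of which there were 413 and 665. HOX33 stood at 1945 and 1938 TPB, places 25 and 31 when HOX9 and HOX10 are ranked apart, as they are in the totals of 413 and 665. HOX9 with HOX10 had 5.43 and 5.80 times the distinct reads of HOX33. HOX33 took 15.5% (10.7 to 21.4) of the distinct reads of these 3 genes in darkness and 14.7% (11.6 to 18.3) after light, intervals that overlap almost wholly. HOX29 stood at 43.2 and 19.6 TPB, its 1 read being divided over 3 places, of which 2 are its listed versions. An exact Poisson interval around its 1 read reaches 361 TPB in darkness and 164 after light if the read is unshared, still below HOX33. All members together held 3.53% and 2.70% of the TPB at listed sites.

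Light exposure of 1 h was set against darkness through the light over dark ratio of TPB, and a gene was called for a difference of 2-fold or more whose interval excluded 1. None of the 4 members was called, against 5.59% of the 823 genes. HOX29, with 1 read in either library, could not have been called, and HOX9 and HOX10 rest on the same reads. Only 2 units, HOX9 with HOX10 and HOX33, were thus open to a call, too few to set against this background. The calls over the whole table were 27 (3.28%) towards light and 19 (2.31%) towards darkness. None of the 24 member sites was called either, against 4.89% of the 2064 sites. These member sites repeat the same reads over versions, so they too are too few separate observations to set against this background. Among the 29 genes with at least 100 raw reads 7 (24.1%) were called, all towards light, and HOX9 and HOX10 were not among them. In such bulk tissue, fewer cells of a type and less RNA per cell cannot be told apart, and transcript levels were not measured here.

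HOX9 with HOX10, as 163 and 383 distinct reads over both positions, stood at a ratio of 1.06 (0.884 to 1.29). The separate values of HOX9 and HOX10 repeat this ratio, since they rest on the same reads, and are not 2 observations. At the main position alone the ratio was 1.05 (0.872 to 1.27). HOX33, with 30 and 66 reads, stood at 0.996 (0.638 to 1.59), and at 0.968 (0.614 to 1.56) at its main position. The intervals of both units include 1 and exclude a 2-fold change in either direction on the authors' scale. For HOX29, with 1 read in either library, no ratio is given. The median ratio over the 255 genes with reads in both libraries was 0.883, and over the 29 deeply read genes it was 1.37.

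The direction of these small differences depended on the scaling between the libraries. With the median ratio of sites found in both libraries set to 1, a shift of 0.18 on the log2 scale, HOX9 with HOX10 stood at 1.20 (1.00 to 1.46) and HOX33 at 1.13 (0.722 to 1.80). With the sum over these sites made equal, a shift of -0.44, they stood at 0.785 (0.652 to 0.949) and 0.735 (0.470 to 1.17). For HOX9 with HOX10 the interval thus lay just above 1 with the one and below 1 with the other, and for HOX33 it included 1 with both. At the main position alone, the interval of HOX9 with HOX10 under the median scaling included 1 (0.987 to 1.44). No member was called under any of the 3 scalings. Calls over all genes were 29 towards light (3.52%) and 17 towards darkness (2.07%) with the median scaling, and 12 (1.46%) and 44 (5.35%) with the sum scaling.

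**Figure D3:**
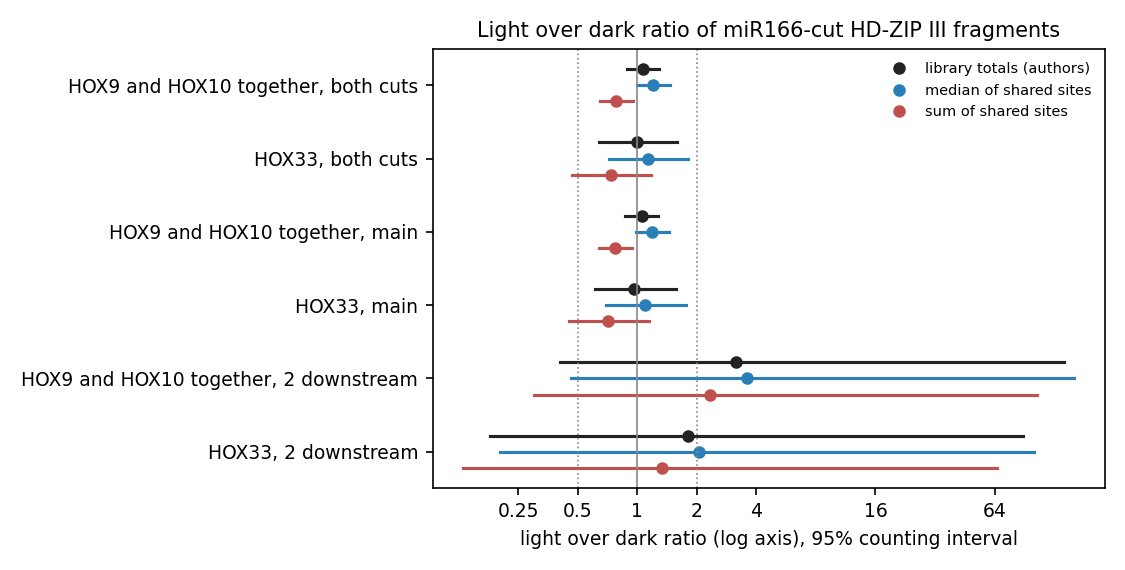
Light over dark ratio (log axis) of HOX9 with HOX10 and of HOX33, at both cuts, the main cut and the cut 2 bases downstream, under 3 scalings (colours); points are ratios and lines 95% counting intervals, with dotted lines at 2-fold. Main-cut ratios lie between 0.714 and 1.19 across the scalings, and the second cut has intervals wider than 2-fold on either side.

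**Figure D4:**
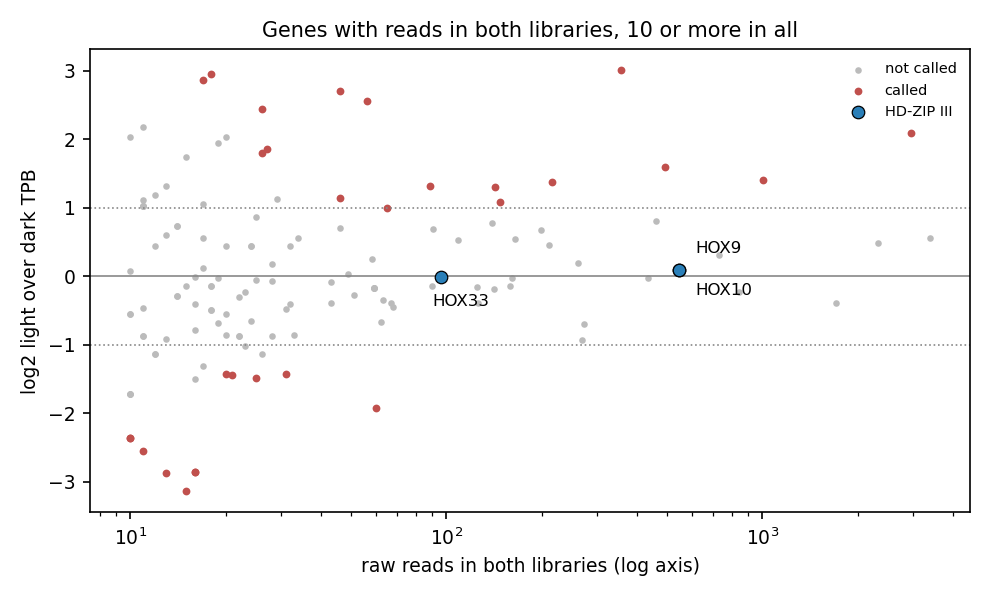
Log2 light over dark TPB against raw reads in both libraries (log axis) for the 136 genes with reads in both libraries and at least 10 in all; called genes are red, HD-ZIP III genes blue, dotted lines mark 2-fold. HOX9 and HOX10 fall on 1 point at a ratio of 1.06 and HOX33 lies at 0.996; HOX29 has too few reads to be drawn.

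The genes nearest to HOX9 in ratio, among those with at least 100 raw reads, were HOX10, at a distance of 0.0013 on the log2 scale that the shared reads fix, NAC021 (ZS06g0612500) at 0.097 and NFYA6 (ZS03g0073000) at 0.12. NAC021 is named for a NAC transcription factor and stood at a ratio of 1.14 (0.865 to 1.51). NFYA6, a subunit of the CCAAT-binding NF-Y complex, stood at 0.982 (0.799 to 1.21). This likeness rests on 1 difference between 2 libraries.

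Set beside other transcription factor classes with a conserved small RNA site, the HD-ZIP III genes gave fewer fragments than the ARF genes of miR160, which mediate auxin responses. The 5 ARF genes held 139338 TPB in darkness and 184133 after light, the 5 NF-YA genes 31706 and 28428, and the 4 HD-ZIP III genes 12557 and 13206. The most read ARF genes were ARF18, at 51528 and 76074 TPB, and ARF22, at 36828 and 51334. The most read NF-YA genes were NFYA10 (ZS12g0498400), at 18998 and 16240 TPB, and NFYA6 (ZS03g0073000), at 8883 and 8722. Ratios of genes with at least 10 reads ran from 0.759 to 2.66 in 4 ARF genes, from 0.788 to 1.36 in 5 NF-YA genes and from 0.996 to 1.06 in 3 HD-ZIP III genes, 2 of which share their reads. Of these classes 1 ARF gene was called higher, and no NF-YA gene was called. Whether the classes differ was not tested.

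The share of the main position was taken over the reads at listed small RNA sites of a gene, not over all its reads. In HOX9 it was 99.4% in darkness and 98.2% after light (96.3 to 99.3). In HOX33 it was 96.7% (82.8 to 99.9) and 93.9% (85.2 to 98.3). In the 4 ARF genes with at least 10 reads it ran from 95.9% to 99.4% in the dark library and from 98.5% to 99.0% in the light library. Several NF-YA genes have a single listed site per transcript, which fixes the share. In the NF-YA genes with more listed sites than versions it was 100% in the dark library. In the light library it was 96.7% (88.5 to 99.6) and 97.5% (86.8 to 99.9).

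Other transcripts listed with miR166 gave few reads. Outside the members 193 pairs with 66 genes were listed, and 24 pairs from 7 genes had reads. The most read was MARD1, named after an Arabidopsis gene linked to abscisic acid and seed dormancy, with 1 raw read in darkness and 9 after light. After light its position was in category 1 on some versions, with deposited p-values of the pair from 0.0030 to 0.0047. On another version it was in category 2, with values from 0.664 to 0.816, and in darkness it was in category 4. The ratio of MARD1 was 4.08 (0.565 to 179) and it was not called. The others had at most 4 reads in either library, namely DTX49 ZS02g0562300 (0 and 4), DTX49 ZS04g0677200 (0 and 1), GBF4 (0 and 2), mdn1 (1 and 0) and the unnamed ZS02g0068400 and ZS11g0046700, which each listed 0 and 2 raw reads. Each unnamed gene had only 1 normalized read after light, so its reads also match elsewhere, and both genes may hold the same reads. GBF4 and mdn1 had reads only with osa-miR166g-5p and osa-miR166k-5p, forms that do not resemble the 3p arm listed with the members. The members held 99.0% of the normalized reads at miR166 sites in darkness and 96.2% after light.

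The lowest penalties outside the members did not come with reads. Of the pairs outside the members 10, from 4 unnamed genes, had a penalty of 2 or less, among them ZS12g0533100 and ZS02g0616500 at 1, and none had a read in either library. Up to a penalty of 3 there were 39 such pairs, and 7 had reads. The members' penalties were no lower than 2. The table holds 12 other genes with a HOX symbol, and only HOX16 among them had reads, with 8 and 25 raw reads at a position that no miR166 form was listed with. Another of them carries the symbol HOX9 but was not listed with miR166 and is no member.

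In the deposited cell wall sheet the heading for xylem development held HOX9, on 6 lines, and HOX10, on 7, and no other gene. HOX33 and HOX29 were not listed in that sheet.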

How the data were processed

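The authors deposited raw read counts, whole numbers of reads starting at a cleavage position, per the file headers. Their normalized reads and TPB are a signal: the deposited TPB equals normalized reads times 1 constant per library, whose inverse gave the library totals. The deposited p-values, the log2 fold change (dark over light) and the alignment score and category are the authors' own, per the file headers. Aligner, target finder and genome build were not given in the sources used here. Some dark columns are headed 1 h and were read as the dark library. Of the first sheet 1 empty line was dropped, and 20 columns of values per sample in the other sheets were not used.

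Pairs were collapsed to sites, and TPB was summed over versions and positions of a gene. Intervals are exact Clopper-Pearson intervals of raw reads scaled by library totals (Python 3.11.15, scipy 1.17.1). The interval and call steps were tested on simulated data, drawn as independent Poisson counts. The simulation held no PCR copies, shared reads or variation between libraries, so it cannot speak to those limits. Alternatives were 2 other scalings, raw reads, a single version, the main position alone, a minimum of 10 reads, and HOX9 with HOX10 as 1 unit, the last added after the data were seen. Named genes are the members, other genes with reads at miR166 sites, the 2 most read ARF and NF-YA genes, and the 3 nearest to HOX9 in ratio. Members and lists were chosen with earlier results of these data known. All 4 symbols matched 1 RefSeq rice gene each by synonym, and no coordinates were taken from it. Sequences are from the deposited table.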

Additional observations from a re-analysis of the deposited data

How the results depend on the processing

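Over 9 ratios of the member genes and their positions, 2 counts of called genes and 6 shares at the main position, 50 alternatives were computed, and 43 stayed within the counting interval of the main value or, for counts, within 1.5 times. The other 7 follow. With the sum scaling the ratio of HOX9 moved to 0.785 and that of HOX10 to 0.784, and at their main positions to 0.776 and 0.775, below 1 and under 2-fold. With the same scaling 12 genes of the whole table were called higher, against 27, and 44 lower, against 19. With a minimum of 10 reads 12 were called lower, since fewer genes were tested. Why the scalings differ was not tested. Raw reads, a single version, the main position alone and HOX9 with HOX10 as 1 unit moved no member ratio outside its interval, and HOX29 dropped out under the minimum of 10 reads. For HOX9, HOX10 and HOX33 the single version and the minimum of 10 reads gave exactly the main ratio. Raw reads gave exactly the main ratio for HOX33 and for the second positions, and normalized reads gave almost the same shares. The values of HOX10 repeat those of HOX9. HOX9 with HOX10 as 1 unit uses the same reads again, and the intervals of the second position are very wide. For these alternatives, staying within the interval says little. Depth limits the second position and HOX29. No paired analysis was possible because each condition has 1 library.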

Other observations

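The p-values between the libraries in the authors' deposited table rest on TPB and not on the number of reads. For all 3262 pairs with reads, the 89 member pairs among them, the deposited chi-square p was obtained again, within 0.1% or 1e-06, by taking TPB as if it were a read count and testing it against TPB summed over all listed pairs, 1216873 in darkness and 1487185 after light. HOX29, with 1 read in either library, has a p of 0.0073 in the authors' deposited table. HOX33 at its main position, with 29 and 62 reads and a ratio of 0.968 (0.614 to 1.56), has 4.2e-05 in the authors' deposited table, and HOX9, with 161 and 376 reads, has 9.4e-05. The second position of HOX33, with 1 and 4 reads, has 0.139 in the authors' deposited table. Of the 89 member pairs 86 fall under 0.05, and of all 3262 pairs with reads 2823 do (86.5%).

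Among the main positions of HOX9, HOX10 and HOX33, all in category 0, the deposited p-value of a form within 1 library was the same at different read numbers, with 1 exception. There osa-miR166a-3p has 0.0364 in darkness and 0.0418 after light in the authors' deposited table for HOX9, HOX10 and HOX33 alike, whose raw reads there are 161, 160 and 29 in the dark library. The exception is the form that carries C21A, with which HOX33 stands at 0.0113 against 0.0252 in the dark library, where its penalty is 2 against 3. For HOX29, in category 4 with 1 read, the values in the authors' deposited table run from 0.854 to 0.975 in the dark library.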
